A study of Mus musculus with 6 samples.

Results

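Immunoglobulin chain genes were described in the cortex of irradiated mice through 10 genes, taken by name from the 51826 genes of the deposited tables. They are the heavy chain constant genes *Ighm*, *Ighd*, *Ighg1*, *Ighg2b*, *Ighg2c*, *Ighg3* and *Igha*, the light chain constant genes *Igkc* and *Iglc2*, and *Jchain*. The genes were chosen with the values of the genotype comparison known, so their own differences between genotypes are given below as a description. Where calls among them are counted, nothing is read from the count. The study asked what loss of asparagine endopeptidase (AEP), the lysosomal protease encoded by *Lgmn*, changes in the irradiated brain. Cortical polyA RNA was sequenced from 3 irradiated *Lgmn*+/+ mice (*Lgmn*+/+-IR) and 3 irradiated *Lgmn*-/- mice (*Lgmn*-/--IR). All were males of 6 to 8 weeks, all received a single whole-brain dose of 10 Gy of X-rays, and all libraries are from day 3. The study's methods give BALB/c as the strain of both genotypes. The *Lgmn*-/- mice are *Lgmn* flox/flox:Cre+ animals descended from a single targeted embryonic stem cell clone placed in BALB/c blastocysts, and then from matings with Flp and Cre mice. The methods name neither the strain of the stem cells nor the strain and promoter of the Cre mice, nor do they say whether the brains were perfused. Non-irradiated libraries were not analysed here, so no difference below is an effect of irradiation.

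An antibody is built from heavy and light chains, each with a variable part that binds antigen and a constant part that sets its class. *Ighm* and *Ighd* encode the constant parts of IgM and IgD, the *Ighg* genes those of the IgG subclasses and *Igha* that of IgA. *Igkc* and *Iglc2* encode constant parts of the kappa and lambda light chains, and *Jchain* encodes the joining chain that links IgM and IgA into polymers. B cells and plasma cells transcribe these genes from rearranged loci, and a healthy brain parenchyma holds few of either, most of them in the meninges, the choroid plexus and blood vessels. *Ighg2c* is the allele carried by the C57BL/6 reference strain, and BALB/c mice carry the alternative allele *Ighg2a* at the same place. The deposited tables hold 0 rows named *Ighg2a*.

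The heavy chain locus lies on chromosome 12 of GRCm38, from 113254830 to 116010093, on the same chromosome as *Lgmn*, 10.8 Mb away. From the end nearest to *Lgmn* the listed constant genes run *Igha* (113254830-113260236), *Ighg2c* (113285325-113288932), *Ighg2b* (113302965-113307933), *Ighg1* (113325240-113330523), *Ighg3* (113356224-113361232), *Ighd* (113406604-113416324) and *Ighm* (113418558-113422730), all on the minus strand. *Igkc* lies on chromosome 6 (70726435-70726966), *Iglc2* on chromosome 16 (19198396-19200351) and *Jchain* on chromosome 5 (88519809-88527891). The 4 gamma genes are close relatives, which bears on how reads are assigned between them. Their hinge exons, which encode the flexible joint of IgG, are shown because they set the gamma genes apart over a short stretch. They are transcript sequences of GENCODE M21 on GRCm38, written 5′ to 3′ on the minus strand, at chr12:113288263-113288325 for *Ighg2c*, chr12:113307261-113307326 for *Ighg2b*, chr12:113329844-113329882 for *Ighg1* and chr12:113360529-113360576 for *Ighg3*. Capitals mark bases that differ from *Ighg2c* in a pairwise alignment, or from *Ighg2b* in the *Ighg2c* line.

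Ighg2c: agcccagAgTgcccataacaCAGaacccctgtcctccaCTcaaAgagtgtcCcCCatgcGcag
Ighg2b: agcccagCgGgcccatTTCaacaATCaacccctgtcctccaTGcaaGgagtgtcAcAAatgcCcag
Ighg1: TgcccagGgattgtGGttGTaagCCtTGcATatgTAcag
Ighg3: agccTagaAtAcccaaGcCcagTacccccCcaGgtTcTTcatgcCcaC

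The first 60 bases of the first constant exon are shown for the nearest pair, *Ighg2c* (chr12:113288873-113288932) and *Ighg2b* (chr12:113307874-113307933), with the 5 bases that differ in capitals.

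Ighg2c: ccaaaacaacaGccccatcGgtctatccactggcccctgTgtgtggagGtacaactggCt
Ighg2b: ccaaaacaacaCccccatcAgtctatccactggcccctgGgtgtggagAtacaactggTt

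Over the 4 coding exons of the secreted form, *Ighg2c* was 85.6% identical to *Ighg2b*, 75.1% to *Ighg1* and 75.5% to *Ighg3*. Of the 1276 windows of 50 bases in the *Ighg2c* transcripts, 70 (5.49%) also occur in *Ighg2b* and in no other gene. None of the 1837 windows of *Ighm* occurs in another gene. *Igkc*, *Igha* and *Ighd* likewise share no such window, whereas 7.65% of those of *Iglc2* occur in *Iglc3*. The sources used here do not state how reads that match several genes were counted, nor whether strand was used.

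The 6 libraries held 41874462 to 46829441 counts. Library totals limit what can be seen: a count of 0 allows a level of up to 3 counts, which is 0.0646 to 0.0703 CPM (counts scaled to library size), and this limit covers counting error only. Counts of *Lgmn* itself were 5558, 5528 and 5775 in wild-type against 3703, 3269 and 4109 in knockout libraries, lower in every knockout library, with a log2 fold change of -0.64 (SE 0.12, adjusted p = 0.0315 in edgeR's quasi-likelihood test). Counts cover the whole gene and not the deleted exons alone. Of 18345 genes tested with edgeR, 176 were called higher and 201 lower in *Lgmn*-/--IR, where a call needs an adjusted p below 0.05 together with a log2 fold change beyond 1 in either direction. At an unadjusted p under 0.05 in edgeR, 18.6% of them passed, which is the background for such counts below. Genes of cortical cells summed to 7480 CPM ± 603 and 7489 CPM ± 766 (SD, n = 3 each), and 0 of 12 were called. The 3 samples of a genotype are separate samples in the labels, and same-numbered samples of the 2 genotypes are different animals. In bulk RNA, fewer cells of a type and less RNA per cell cannot be told apart, which holds for each gene below. Where groups are said not to overlap, the share of all genes that separate likewise was not determined. Such a separation is given as description only.

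*Ighm* was the most abundant immunoglobulin gene in every library. It had 821, 441 and 522 counts in *Lgmn*+/+-IR replicates 1, 2 and 3 against 1568, 2040 and 2294 in *Lgmn*-/--IR replicates 1, 2 and 3. All 3 knockout libraries lay above all 3 wild-type libraries. On the length-scaled FPKM scale the levels were 7.69 ± 2.83 and 24.3 ± 4.06 (SD, n = 3 each), and *Ighm* stood above 54.7% to 68.5% of tested genes in *Lgmn*+/+-IR and above 80.8% to 86.6% in *Lgmn*-/--IR. Mean CPM was 3.21-fold higher in the knockout libraries, 13.7 ± 4.86 against 43.8 ± 8.49, and the fitted log2 fold change was 1.68 (SE 0.26). Without any single library the ratio lay between 2.85 and 4.03.

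*Ighg2c* showed a wider gap. It had 4, 6 and 4 counts in *Lgmn*+/+-IR against 169, 231 and 303 in *Lgmn*-/--IR, so that the lowest knockout library was far above the highest wild-type library. Its FPKM was 0.0672, 0.104 and 0.0503 against 2.91, 3.94 and 4.99. Mean CPM differed 48.7-fold, 0.107 ± 0.0286 against 5.23 ± 1.57 (SD, n = 3 each), with a log2 fold change of 5.57 (SE 0.35) and ratios of 40.9 to 57.5 when 1 library was left out. The wild-type level rests on 14 reads in all libraries together. Reads of the BALB/c allele *Ighg2a* have no row of their own. Whether they were counted on *Ighg2c* or left out was not tested. *Ighg2c* ranked above 1.41% to 3.51% of tested genes by FPKM in *Lgmn*+/+-IR and above 41.9% to 53.6% in *Lgmn*-/--IR.

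The other gamma genes stayed near 0. *Ighg2b*, the nearest relative of *Ighg2c*, had 0 counts in all *Lgmn*+/+-IR libraries and 10, 2 and 2 in *Lgmn*-/--IR. Only replicate 1 exceeded the 3 counts that a count of 0 allows. *Ighg3* had 0 counts in *Lgmn*+/+-IR against 0, 4 and 2 in *Lgmn*-/--IR. *Ighg1* had 4 counts in *Lgmn*+/+-IR replicate 3 and 0 in every other library. No fold is given for these 3 genes, since most of their libraries lie at 0 or under that limit. *Ighg2c* thus held nearly all gamma counts of the knockout libraries, although *Ighg2b* is the next listed gene on the chromosome.

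**Figure D1:**
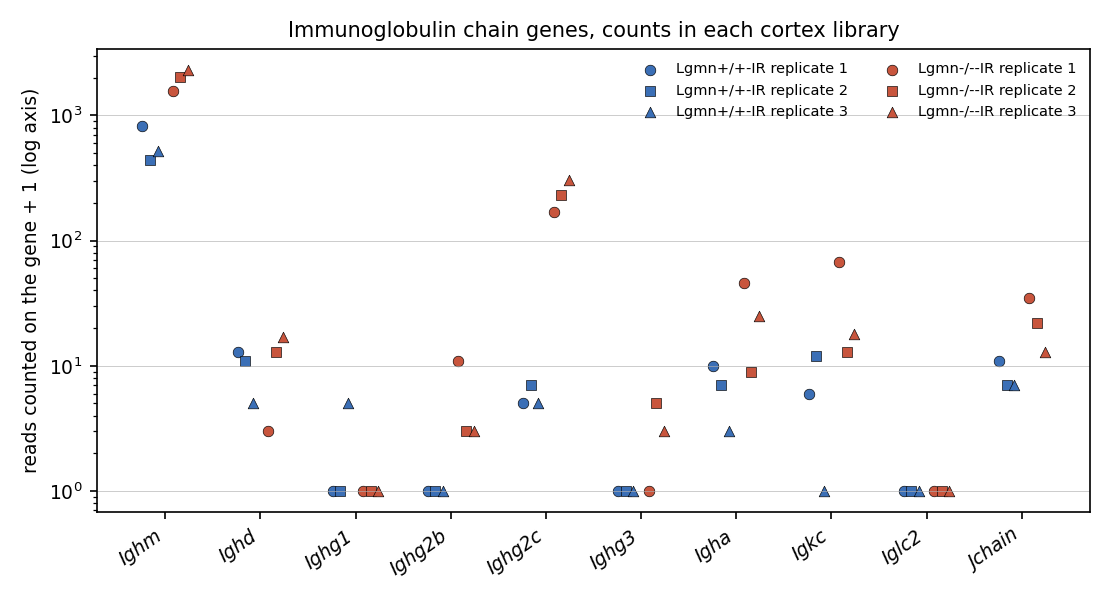
Reads counted on each immunoglobulin chain gene plus 1, on a log axis, with 1 point for each cortex library (blue, Lgmn+/+-IR; red, Lgmn-/--IR; the shape gives the replicate). Ighm lies at 441 to 821 against 1568 to 2294 counts and Ighg2c at 4 to 6 against 169 to 303 counts, and Iglc2 is at 0 throughout.

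*Ighd* and *Igha* were low. *Ighd*, transcribed together with *Ighm* in naive B cells, had 12, 10 and 4 counts in *Lgmn*+/+-IR against 2, 12 and 16 in *Lgmn*-/--IR. The groups overlapped, with a log2 fold change of 0.15 (SE 0.73) whose sign turned to -0.09 with limma-voom and to -0.21 and -0.38 without *Lgmn*+/+-IR replicate 3 or *Lgmn*-/--IR replicate 3. *Igha* had 9, 6 and 2 counts against 45, 8 and 24, which also overlapped. Its mean CPM was 0.132 ± 0.0838 and 0.577 ± 0.421, a ratio of 4.38 that became 2.73 without *Lgmn*-/--IR replicate 1, and the gene had too few counts to enter the fit.

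The light chains did not match the heavy chains in amount. *Igkc*, whose product pairs with most mouse heavy chains, had 5, 11 and 0 counts in *Lgmn*+/+-IR against 66, 12 and 17 in *Lgmn*-/--IR. The groups did not overlap in CPM, but the gap was between 0.257 and 0.259 CPM, and *Lgmn*-/--IR replicate 1 stood far above the other libraries. The ratio of mean CPM was 5.7, with 2.59 without that library and 12.1 without *Lgmn*+/+-IR replicate 2, and the log2 fold change was 2.50 (SE 1.01). *Iglc2* had 0 counts in all 6 libraries, so no difference was detectable at this depth. Per 100 *Ighm* counts there were 0.609, 2.49 and 0 *Igkc* counts in *Lgmn*+/+-IR against 4.21, 0.588 and 0.741 in *Lgmn*-/--IR. Scaled for length, the *Igkc* level was 0 to 0.0725 times that of *Ighm* in *Lgmn*+/+-IR and 0.0171 to 0.123 times in *Lgmn*-/--IR. The highest wild-type value and the highest knockout value were each well above the rest of their group.

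*Jchain* had 10, 6 and 6 counts in *Lgmn*+/+-IR against 34, 21 and 12 in *Lgmn*-/--IR, without overlap. Mean CPM was 0.169 ± 0.0569 and 0.497 ± 0.249, a ratio of 2.94 (2.15 to 3.65 with 1 library left out) and a log2 fold change of 1.55 (SE 0.50). Within the knockout libraries *Jchain* was lowest in replicate 3. *Igkc*, *Igha*, *Jchain* and *Ighg2b* were highest in *Lgmn*-/--IR replicate 1, whereas *Ighm*, *Ighd* and *Ighg2c* were highest in replicate 3. These sets of genes thus had their maximum in different knockout animals.

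Of the 10 genes, 5 had enough counts to be tested (*Ighm*, *Ighd*, *Ighg2c*, *Igkc* and *Jchain*), and 2 were called higher in *Lgmn*-/--IR, *Ighm* and *Ighg2c*. Over all genes tested, 2.06% were called in either direction, 0.959% were called higher and 1.1% lower. The genes were chosen on this contrast, so nothing is read from that count. With the replicate number as a block the count was 1, *Ighg2c* alone, and it was also 1 without *Lgmn*+/+-IR replicate 2 or 3 or without *Lgmn*-/--IR replicate 2 or 3. Summed over the 10 genes, CPM was 20.2, 11.2 and 11.9 in *Lgmn*+/+-IR against 42.6, 50.2 and 60.8 in *Lgmn*-/--IR, a ratio of 3.55. *Ighm* made up most of that sum.

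The makeup of the heavy chain RNA was described by the share of each constant gene. *Ighm* took 97%, 95.2% and 97.4% of the heavy chain constant counts in *Lgmn*+/+-IR (846, 463 and 536 counts) and 87.4%, 88.8% and 86.9% in *Lgmn*-/--IR (1794, 2297 and 2641 counts). The *Ighg2c* share was 0.473% (95% exact Clopper-Pearson interval 0.129 to 1.21), 1.3% (0.477 to 2.8) and 0.746% (0.204 to 1.9) in *Lgmn*+/+-IR. In *Lgmn*-/--IR it was 9.42% (8.11 to 10.9), 10.1% (8.86 to 11.4) and 11.5% (10.3 to 12.8). The share was higher in every knockout library, as a description of genes chosen on this contrast. RNA of *Ighg2a*, which has no row, may be missing from these shares and totals, and its amount was not tested. Per 100 *Ighm* counts, *Ighg2c* had 10.8, 11.3 and 13.2 counts in the knockout libraries, while *Igkc* ranged from 0.588 to 4.21 across the same animals. These intervals cover counting error only, since the reads carry no molecular identifiers and may repeat a molecule.

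**Figure D2:**
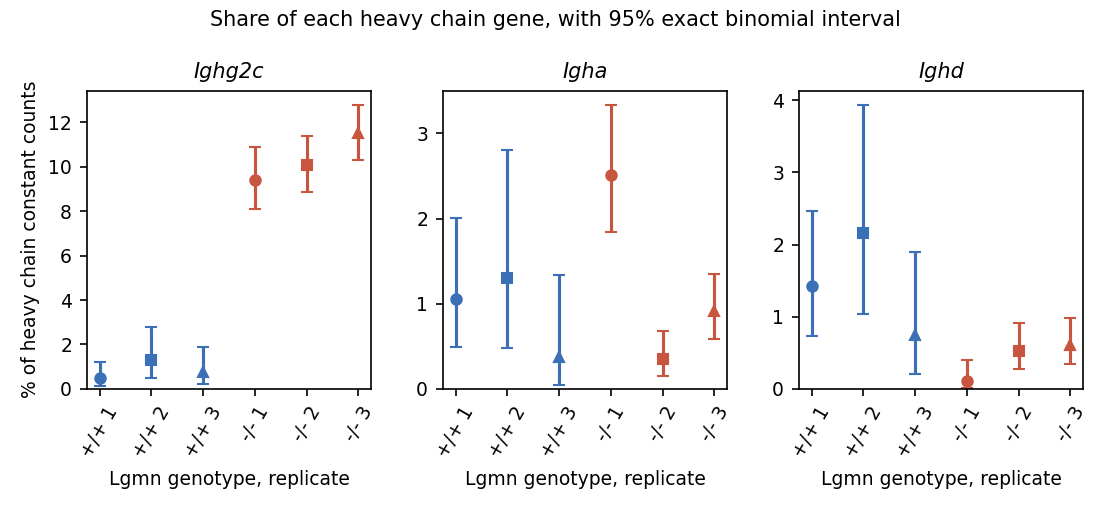
Percent of the heavy chain constant counts of each library that fell on Ighg2c, Igha and Ighd, with 95% exact binomial intervals (blue, Lgmn+/+-IR; red, Lgmn-/--IR; each panel has its own axis from 0). The Ighg2c share lies at 0.473% to 1.3% in Lgmn+/+-IR and 9.42% to 11.5% in Lgmn-/--IR, while the Igha shares of the genotypes overlap in range.

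A rearranged antibody gene carries a variable segment on the same RNA as its constant part. The tables list 348 variable segments (185 *Ighv*, 160 *Igkv* and 3 *Iglv*), of which 24 had a count in any library, and 0 had enough counts to be tested. Their counts summed to 6, 4 and 4 in *Lgmn*+/+-IR and to 34, 0 and 18 in *Lgmn*-/--IR. *Lgmn*-/--IR replicate 2 thus had 2040 *Ighm* and 231 *Ighg2c* counts and no count on any listed variable segment. The submitters' notes name GRCm38 as the genome, and the mice are given as BALB/c. Whether reads of variable segments from another strain were counted on the listed ones was not tested. A count of 0 may therefore miss such RNA. Heavy chain variable segments had 0 counts in all 3 *Lgmn*+/+-IR libraries and 14, 0 and 7 in *Lgmn*-/--IR. Those with the most counts were *Ighv1-7* (4 in *Lgmn*-/--IR replicate 1), *Ighv1-64* (3 in the same library) and *Ighv1-5* (3 in replicate 3). Kappa segments had 4, 4 and 4 counts against 20, 0 and 11. They were led by *Igkv8-24*, with 7 counts in *Lgmn*-/--IR replicate 1, and by *Igkv6-20*, with 2, 0 and 2 counts against 0, 0 and 3. The largest value of any single segment was 7. The summed ratio of 3.65 spanned 1.91 to 5.48 when 1 library was left out. Of the other immunoglobulin genes, the joining segment *Ighj1* had 1, 2 and 1 counts against 1, 0 and 1, and the lambda constant gene *Iglc1* had 1 count, in *Lgmn*-/--IR replicate 1. In the heavy chain locus 271 genes are listed and 30 had a count, and 97.1% of its 8651 counts fell on *Ighm* and *Ighg2c*.

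Genes that mark B cells most narrowly had few counts in both genotypes. *Ms4a1*, which encodes CD20, had 0 counts in all 6 libraries. *Cd79a*, which encodes a signaling chain of the B cell receptor, had 19, 14 and 30 counts against 14, 33 and 24, a log2 fold change of 0.13 (SE 0.42, adjusted p = 0.891 in edgeR). Of 20 B cell genes, 7 were tested and 0 were called by edgeR, DESeq2 or limma-voom. At an unadjusted p under 0.05 there was 1, where 18.6% of all tested genes pass. *Cd72* alone was called lower by limma on log2(FPKM + 0.1). Among untested genes, singled out with their values in view, *H2-Ob* had 6, 7 and 4 counts against 17, 20 and 8, *Cd22* had 0, 2 and 0 against 10, 0 and 10, and *Cd79b* had 0, 0 and 4 against 4, 4 and 4. Other untested genes of the list leaned lower. Among them, *Tnfrsf13c* had 8, 19 and 10 counts against 11, 4 and 8. *Spib* had 0, 4 and 2 against 0, 0 and 0, and *Blk* had 0, 2 and 2 against 0, 0 and 0. The median log2 fold change of the 7 tested genes was -0.21, beside -0.01 over all genes. The summed level of the list was 19.9 to 21.9 CPM in *Lgmn*+/+-IR and 13.8 to 20.5 CPM in *Lgmn*-/--IR. Most of that sum came from *Blnk*, *Pou2f2* and *Cd37*, which other immune cells also use, with means of 7.68, 5.43 and 3.25 CPM in *Lgmn*+/+-IR.

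Genes of plasma cells gave a mixed picture. *Sdc1*, which encodes the plasma cell surface protein syndecan-1, had 117, 103 and 97 counts in *Lgmn*+/+-IR against 58, 85 and 69 in *Lgmn*-/--IR, a log2 fold change of -0.63 (SE 0.21, adjusted p = 0.183). *Mzb1*, a chaperone of immunoglobulin assembly, had 5, 3 and 7 counts against 0, 0 and 2, too few to test. *Prdm1*, the transcription factor that drives plasma cell differentiation, had 47, 44 and 42 against 48, 60 and 46 (log2 fold change 0.17, SE 0.22, adjusted p = 0.738). *Xbp1*, a transcription factor of the secretory pathway that many cell types use, had 2982, 3074 and 3144 counts against 5279, 6028 and 5918. It rose by a log2 fold change of 0.86 (SE 0.09, adjusted p = 0.00326), short of the fold threshold. *Creld2*, a chaperone of the endoplasmic reticulum, rose likewise, from 605, 608 and 639 counts to 1029, 1228 and 1110 (log2 fold change 0.82, SE 0.10, adjusted p = 0.0063). Of the 20 genes in the list, 14 were tested and 0 were called by edgeR, DESeq2 or limma-voom. At an unadjusted p under 0.05 there were 3 higher and 1 lower, where 18.6% of all tested genes pass. The median log2 fold change was 0.14, beside -0.01 over all genes. The summed level of the list was 205 to 247 CPM in *Lgmn*+/+-IR and 301 to 315 CPM in *Lgmn*-/--IR. Broadly expressed genes of the secretory pathway, *Xbp1* among them, hold most of these counts.

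A further pair of genes was singled out after their values were seen. *Tnfrsf17*, which encodes the plasma cell survival receptor BCMA, had 0, 2 and 0 counts in *Lgmn*+/+-IR against 6, 7 and 8 in *Lgmn*-/--IR. *Fcrl5*, a receptor of B cells and plasma cells, went the other way, with 5, 8 and 2 against 0, 0 and 0. Neither had enough counts to be tested.

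**Figure D3:**
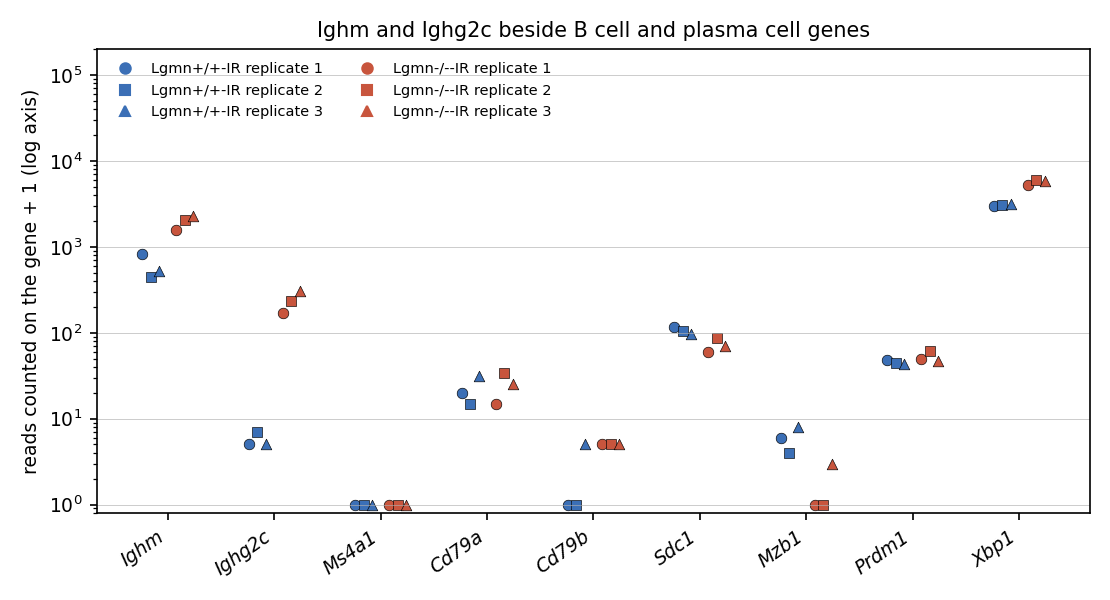
Reads counted on Ighm, Ighg2c, B cell genes (Ms4a1, Cd79a, Cd79b) and plasma cell genes (Sdc1, Mzb1, Prdm1, Xbp1) plus 1, on a log axis, with 1 point for each library (blue, Lgmn+/+-IR; red, Lgmn-/--IR; the shape gives the replicate). Ighm, Ighg2c and Xbp1 are higher in every Lgmn-/--IR library, Sdc1 is lower in every one, and Ms4a1 is at 0 throughout.

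Class switching replaces the *Ighm* constant part with a downstream one. Of the list for it, 9 DNA repair genes in general use were tested, and 0 were called by edgeR, DESeq2 or limma-voom. At an unadjusted p under 0.05 there were 2, where 18.6% of all tested genes pass, here and for the next lists. Of 12 receptors and transporters of antibody, 7 were tested and 0 were called by edgeR or limma-voom, with 2 at an unadjusted p under 0.05. *Fcgr2b*, the inhibitory Fc receptor, is named because DESeq2 and limma on log2(FPKM + 0.1) called it higher. It had 79, 97 and 105 counts in *Lgmn*+/+-IR against 167, 160 and 343 in *Lgmn*-/--IR, without overlap, with a log2 fold change of 1.22 (SE 0.34, adjusted p = 0.113 in edgeR). The summed level of the receptors was 41.2 CPM ± 0.427 and 38.2 CPM ± 2.69. Of 15 survival and homing signals of plasma cells, 9 were tested and 0 were called by edgeR or limma-voom, with 2 at an unadjusted p under 0.05, and DESeq2 called 1, the chemokine gene *Ccl28*, lower. *Il6* and *Il10*, cytokines that sustain plasma cells, had 0 counts in all libraries.

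The levels of some blood and border tissue genes differed between genotypes, and their part in the immunoglobulin values was not tested. Of 9 erythroid genes in the table, 5 were tested and all 5 were called higher by edgeR, *Hba-a1* with 144, 88 and 213 counts against 39579, 30214 and 3977 (log2 fold change 7.33, SE 0.93, adjusted p = 0.00877). The other four were *Hba-a2* (log2 fold change 6.59), *Hbb-bs* (6.69), *Hbb-bt* (6.66) and *Alas2* (5.60). With limma-voom 3 were called higher, and with the replicate block 0 of the 5 were called. DESeq2, which was run without that filter on low counts, called 6 of the 9 higher. The erythroid sum was 7.64 to 15.9 CPM in *Lgmn*+/+-IR and 2273, 1730 and 234 CPM in *Lgmn*-/--IR replicates 1, 2 and 3. It was lowest in replicate 3, the knockout library with the most *Ighm* and *Ighg2c* counts. Monocyte and granulocyte genes other than *Ly6c2* summed to 6, 2 and 12 counts in *Lgmn*+/+-IR and to 101, 10 and 4 in *Lgmn*-/--IR, a split made after the values were seen. Their high library was *Lgmn*-/--IR replicate 1, which also held the most *Igkc*, *Igha*, *Jchain* and variable segment counts. *Ly6c2*, a surface protein of monocytes and some lymphocytes, was the 1 gene of the 14 that was tested, and it fell, with 287, 529 and 371 counts against 43, 35 and 45 (log2 fold change -3.31, SE 0.28, adjusted p = 0.00152). T cell and NK cell genes had 5 of 17 tested and 0 called by edgeR, DESeq2 or limma-voom, with 1 at an unadjusted p under 0.05, and *Cd3d* and *Cd3e* were at 0 in all libraries. All 18 genes of the meninges and choroid plexus were tested and 0 were called by those tools. At an unadjusted p under 0.05 in edgeR there were 5 higher and 1 lower, where 18.6% of all tested genes pass in either direction. The sum of the list was 158 to 189 CPM in *Lgmn*+/+-IR and 218 to 231 CPM in *Lgmn*-/--IR, a ratio of 1.29 without overlap. Its genes did not move together. Mean CPM in *Lgmn*+/+-IR and *Lgmn*-/--IR was 31.6 and 51.7 for *Igf2* and 12.3 and 20.1 for *Dcn*. The choroid plexus gene *Ttr* was at 28.6 in both, and *Folr1* (0.535 and 0.279) and *Otx2* (0.622 and 0.172) were lower.

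The chromosome around the heavy chain locus was examined because *Lgmn* lies on it. Of 106 tested genes starting within 5 Mb of the locus, immunoglobulin genes left out, 0 were called by edgeR or limma-voom and 1, *Exoc3l4*, was called higher by DESeq2. At an unadjusted p under 0.05 there were 4 higher and 16 lower, where 18.6% of all tested genes pass in either direction. An adjusted p below 0.05 in edgeR was reached by 3, all lower. They were *Esyt2* (log2 fold change -0.67), *Xrcc3* (-0.79) and *Adssl1* (-0.50), short of the fold threshold. The median log2 fold change of the 106 was -0.11, beside -0.01 over all genes. The log2 fold changes of *Ighm* and *Ighg2c*, 1.68 and 5.57, stood above those of every tested neighbor in that window, whose highest was 1.48. Both genes were chosen on this contrast and the neighbors were not, so nothing is read from that difference. The knockout allele, the chromosome that came with it and any other strain difference of the mice used to make it cannot be told apart from genotype in these libraries.

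**Figure D4:**
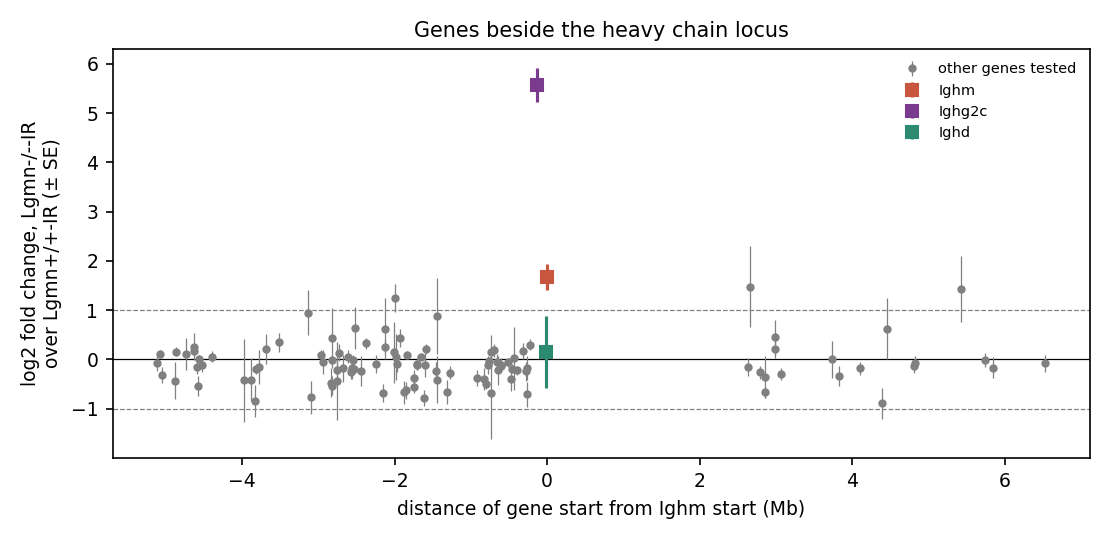
Log2 fold change of Lgmn-/--IR over Lgmn+/+-IR with its SE for the 106 tested genes within 5 Mb of the heavy chain locus (grey) and for Ighm, Ighg2c and Ighd, against the distance of each gene's start from that of Ighm in Mb; dashed lines mark a log2 fold change of 1 in either direction. Ighm (1.68) and Ighg2c (5.57), chosen on this contrast unlike the grey genes, stand above all grey points, whose highest value is 1.48, and Ighd (0.15) lies among them.

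The genes outside the immunoglobulin loci whose log2(CPM + 0.1) was most like the log2 of the summed immunoglobulin CPM over the 6 libraries were *Apln* (r = 0.9980), *Fam111a* (0.9948), *Colgalt2* (0.9939), *Gon4l* (0.9937) and *Gm26653* (0.9911). *Apln* encodes the peptide apelin, made by endothelial cells among others, and had 738, 569 and 638 counts against 1040, 1239 and 1246. With 6 libraries in 2 genotype clusters, 719 of 18340 genes reached r over 0.9, so these values only describe likeness across the same libraries.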

How the data were processed

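Deposited gene tables of 6 cortical libraries, 3 for each genotype, were analysed. The authors used Trimmomatic 0.36 for trimming and HISAT2 for mapping, and the submitters' processing notes name GRCm38. Raw counts per gene were deposited as they were, not normalized, and the deposited FPKM was computed by the authors with StringTie. The read counter, annotation and strand setting are not given in the sources used here. Of counts from 1 to 10, 55.9% were even (50.3% from 100 to 999), so the fit was repeated on halved counts, an alternative chosen after seeing the data. Positions and transcript sequences came from GENCODE M21 (51633 of 51826 gene IDs found).

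Counts were fitted with edgeR 4.0.16 in R 4.3.3 (TMM, filterByExpr, quasi-likelihood test, Benjamini-Hochberg adjustment over 18345 genes). The study names limma for this step without its input, so its thresholds were kept and a count test was used. CPM are TMM-normalized, values after ± are SDs over 3 libraries, and standard errors come from the F statistic. DESeq2 1.42.0, limma-voom and limma 3.58.1 on log2(FPKM + pseudocount), other filters and normalizations, a replicate block and the omission of each library were alternatives. On simulated counts with 200 changed genes among 18345, edgeR called 90.5% of them, and 7.18% of calls were unchanged genes. Replicates of 1 genotype differed well beyond sampling noise. Single values of 3 against 3 libraries allow an exact permutation p of 0.1 at best, so none was used.

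The members and lists were chosen with earlier results of these data known. Named are all members, list genes that were called, fixed markers (*Sdc1*, *Mzb1*, *Xbp1*, *Prdm1*, *Cd79a*, *Ms4a1*), the variable segments with most counts, *Lgmn* and the 5 genes most like the summed members. Any further list gene was singled out with its values in view. The erythroid gene *Ahsp* was not matched. Some fixed list genes are not reported here.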

Additional observations from a re-analysis of the deposited data

How the results depend on the processing

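The number of genes called among all tested was 377. DESeq2, run on every gene with a count, called 593. Among the 18345 genes tested with edgeR, DESeq2 called 267 higher and 286 lower. The number called was 175 with limma on log2(FPKM + 1), 228 with at least 10 counts in every library and 200 to 326 with 1 library left out. The number of immunoglobulin chain genes called was 2, and it was 1 with at least 10 counts in every library, which leaves *Ighg2c* untested, and 1 to 2 with 1 library left out. The members were chosen on this contrast, so these calls describe the settings and support nothing. The log2 fold change of *Ighg2c* was 5.32 to 5.8 with 1 library left out, 2.18 with limma on log2(FPKM + 1) and 4.52 with limma on log2(FPKM + 0.1), scales that understate changes of low genes. That of *Ighm* was 1.51 to 2.02 with 1 library left out. *Ighd* reversed, to -0.09 with limma-voom, and spanned -0.38 to 0.63 with 1 library left out. Among B cell genes 1 was called with limma on log2(FPKM + 0.1), among receptors 1 with DESeq2 and 1 with limma on log2(FPKM + 0.1), and beside the heavy chain locus 1 with DESeq2, 1 within 10 Mb and 0 to 1 with 1 library left out (*Eif5*, lower, without *Lgmn*-/--IR replicate 3). Without *Ighm*, a choice made after seeing the data, the summed immunoglobulin genes differed 9.68-fold and not 3.55-fold. The cause of these changes was not tested, beyond the genes or samples that some settings add or leave out.

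The deviations of same-numbered libraries from their group means showed no positive correlation, at -0.252, -0.0464 and -0.0276 (mean -0.109). Differently numbered libraries were not compared, so these values do not settle whether the replicate numbers pair the samples. With the replicate block 139 genes and 1 immunoglobulin chain gene were called, and the log2 fold change of *Ighm* was 1.72.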
